A study of Mus musculus with 4 samples.

Results

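The 42 genes described here are the 37 genes of the mouse mitochondrial genome and 5 of their nuclear copies, out of 55487 genes in the deposited tables. They were chosen by name: every gene whose symbol starts with mt-, which gave 13 protein genes, 2 ribosomal RNA genes and 22 transfer RNA genes, plus the pseudogenes Gm29216, Gm28661, Gm10925, Gm28437 and Gm28438. The rule itself uses names and no measured value. The libraries were made from cells labelled as skin regulatory T cells (Treg cells, CD4 T cells that hold immune responses in check and carry the transcription factor Foxp3). Mice with shaved backs received 60 mg of a cream with 5% imiquimod each day, which sets off a psoriasis-like dermatitis, and the UVB group also received 3 narrow-band ultraviolet B exposures, 1 on every other day. There were 2 non-UVB and 2 UVB libraries, numbered 1 and 2 in each group. The protocol text describes the cream once for all mice, and the labels name no strain, age, sex, genotype, sorting gate or number of mice per library. The labels do not state separate animals for the 2 libraries of a group, and a p-value here therefore reflects the spread between these 4 libraries alone, part or all of which could be technical.

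The mitochondrial genome is a small circle of DNA held in many copies per cell. It encodes core subunits of the respiratory chain complexes I, III and IV and of the ATP synthase (complex V), together with the ribosomal and transfer RNAs that translate them. Both strands are transcribed into long precursors, which are cut apart largely at the transfer RNAs that lie between the other genes, so the level of each RNA depends on processing and stability as well as on transcription. Fragments of mitochondrial DNA have also been copied into nuclear chromosomes, and a short read from such a stretch can match both places.

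The copies are shown first because their identity with the mitochondrial genes bears on every value that follows. All 5 lie side by side on the minus strand of chromosome 1, between 24612775 and 24616197 (GRCm38), in the order of their mitochondrial parents mt-Co1, mt-Co2, mt-Atp6, mt-Co3 and mt-Nd3. The annotation lists them as unprocessed pseudogenes. Gm28661 matched mt-Co2 at 681 of 681 bases, Gm10925 matched mt-Atp6 at 678 of 678 and Gm28437 matched mt-Co3 at 783 of 783. Gm28438 matched mt-Nd3 at 344 of 345 bases. Gm29216, which corresponds to bases 1054 to 1545 of mt-Co1, matched at 486 of 492. The stretches below hold all 7 differing bases, in capitals, and an identical pair for contrast. Each is written 5′ to 3′ on the strand of its gene, from the GENCODE M21 transcripts (GRCm38). They cover chrM:6381-6440 (plus strand) and chr1:24616138-24616197 (minus strand) for the first pair, chrM:9459-9518 (plus) and chr1:24613060-24613119 (minus) for the second, and chrM:7013-7072 (plus) and chr1:24615506-24615565 (minus) for the last.
mt-Co1: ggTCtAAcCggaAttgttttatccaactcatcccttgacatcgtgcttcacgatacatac
Gm29216: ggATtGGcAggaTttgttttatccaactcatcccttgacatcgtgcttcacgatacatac
mt-Nd3: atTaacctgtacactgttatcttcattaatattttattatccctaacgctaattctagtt
Gm28438: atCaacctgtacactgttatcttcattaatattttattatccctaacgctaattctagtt
mt-Co2: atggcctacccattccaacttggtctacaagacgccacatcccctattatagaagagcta
Gm28661: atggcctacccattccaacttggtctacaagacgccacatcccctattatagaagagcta

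Counted from 1 at the first base of the mitochondrial gene, with the mitochondrial base first, the differences are T1056A, C1057T, A1059G, A1060G, C1062A and A1066T for mt-Co1 and Gm29216, and T3C for mt-Nd3 and Gm28438. Reads were 100 bases long. Of the windows of 100 bases in Gm29216, 380 of 393 were identical to mt-Co1, and of those in Gm28438, 243 of 246 were identical to mt-Nd3. Nearly all reads from these stretches therefore match the mitochondrial gene and its copy equally well. The sources used here do not give how the authors' counting placed such reads, and the TPM of a copy cannot be told apart from that of its parent.

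Before the results, the libraries need a description. In the order non-UVB 1, UVB 1, non-UVB 2 and UVB 2, which holds for all sets of 4 values here, the bases behind the deposited values came to 3.41, 4.20, 2.47 and 2.38 gigabases. Bases aligned to the 37 mitochondrial genes came to 18.9, 11.7, 88.8 and 95.1 megabases. In the libraries numbered 1 some markers, though not all, went against the regulatory T cell label. Foxp3 was listed at 0, 3.49, 19.4 and 19.3 TPM (transcripts scaled to gene length and to a fixed total in each library), and 4 gamma-delta T cell receptor genes summed to 8641, 8486, 175 and 241 TPM. Of the other regulatory T cell markers, Ikzf2 was at 0.068, 17.6, 303 and 170 TPM and Ctla4 at 314, 548, 1496 and 1473 TPM. Il2ra had no order by number, at 248, 134, 252 and 176 TPM. The 5 alpha-beta T cell markers summed to 3819, 2816, 4978 and 2626 TPM. Haemoglobin genes took 11.7% of all TPM in non-UVB 1 and at most 0.441% in the others. No source used here gives the strandedness, and genes that overlap on opposite strands cannot be told apart.

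Mitochondrially encoded RNA was far more abundant in the libraries numbered 2 than in those numbered 1, in both groups. The 37 genes took 0.857%, 0.487%, 5.73% and 6.42% of all TPM. Number 2 thus stood 6.68-fold above number 1 without UVB and 13.2-fold above it with UVB. Between the treatment groups the means were 3.29% ± 3.45 without UVB and 3.45% ± 4.19 with UVB (SD, n = 2 each), a difference of 0.158 percentage points. A 2-sided exact permutation test gave p = 1, and the smallest p that 2 libraries against 2 can reach is 0.333. The UVB library held 0.568 times the share of the non-UVB library among those numbered 1 and 1.12 times that share among those numbered 2, so the ratio lay on opposite sides of 1.

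**Figure D1:**
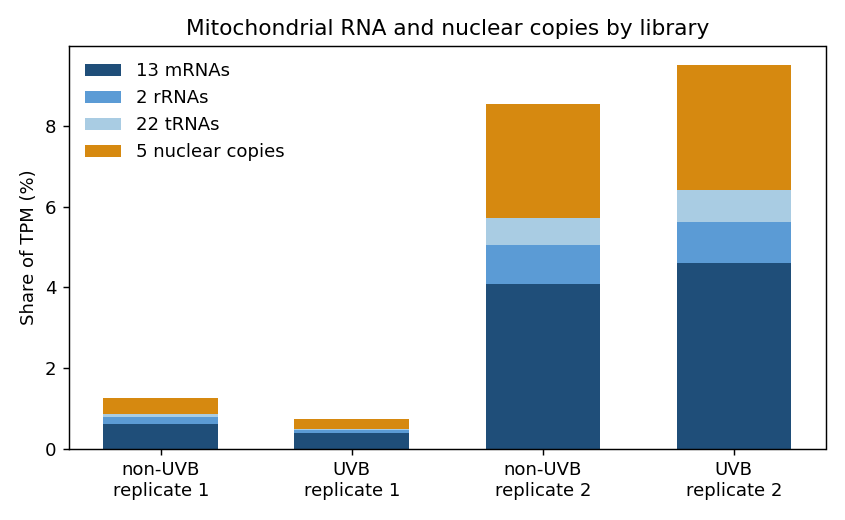
Stacked bars of the percent of all TPM taken by the 13 mitochondrial mRNAs, 2 rRNAs and 22 tRNAs and by the 5 nuclear copies, with 1 bar for each of the 4 libraries. The bars of the libraries numbered 2 reach 8.56% and 9.51%, and those of the libraries numbered 1 reach 1.26% and 0.736%.

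The split held in each class of gene and differed in size. Messenger RNAs took 0.598%, 0.377%, 4.07% and 4.61% of TPM, which made number 2 higher by 6.81-fold without UVB and 12.2-fold with UVB. Ribosomal RNAs took 0.187%, 0.0865%, 0.986% and 1.01%, with folds of 5.26 and 11.6. Transfer RNAs took 0.0718%, 0.0237%, 0.672% and 0.798%, with folds of 9.36 and 33.6. Of the 42 genes, 37 had both libraries numbered 2 above both numbered 1, 1 had them below (mt-Tv) and 4 overlapped or were tied. Among all 20976 genes above 0 in at least 1 library, 22.5% had both libraries numbered 2 on top. The replicate number is no treatment, and these counts carry no test.

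Markers of several cell types differed along the same split, in both directions. The 9 keratinocyte markers, of which 7 to 9 were above 0 in each library, summed to 263, 460, 3687 and 4078 TPM. Krt14, a keratin of basal keratinocytes and the most abundant of them, was at 101, 214, 1527 and 1232 TPM. Krt10, at 39.8, 0, 0 and 39.0 TPM, and Dsp, at 0.789, 3.12, 0.124 and 13.6 TPM, did not keep the order by number. The 4 regulatory T cell markers summed to 563, 703, 2070 and 1837 TPM. The 10 markers of macrophages and dendritic cells, all above 0 in every library, had no order by number, with sums of 11119, 18480, 5852 and 12008 TPM. The fibroblast sum (1 or 2 of 6 above 0) was lower in the libraries numbered 2, at 55.7, 24.0, 0.115 and 0.0113 TPM. In the libraries numbered 1 it was Lum alone. Col1a1, Col3a1, Dcn and Pdgfra were at 0 in all 4 libraries, and Col1a2 was at 0, 0, 0.0016 and 0.0113 TPM. The endothelial sum (1 or 2 of 4 above 0) was also lower, at 133, 40.6, 7.39 and 27.4 TPM. It was mostly Pecam1, at 82.7, 40.6, 7.17 and 27.3 TPM, with Egfl7 at 50.0 TPM in non-UVB 1. Cdh5 and Kdr were at 0 in all 4 libraries. Of 6 skeletal muscle markers, a tissue rich in mitochondria, Ckm, Myh4, Tnnc2 and Tnnt3 were at 0 in all 4 libraries, and the sum was 0.445, 1.91, 87.7 and 21.6 TPM, nearly all of it Mylpf in the libraries numbered 2. In bulk RNA, a different mix of cells and a different amount of RNA per cell cannot be told apart, and the part of these cells in the mitochondrial levels was not tested. Without haemoglobin genes in the total, the mitochondrial share was 0.971%, 0.488%, 5.76% and 6.43%, and number 2 stood 5.93-fold above number 1 without UVB and 13.2-fold above it with UVB.

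Of the 13 mRNAs, that of an ATP synthase gene was the most abundant per length. mt-Atp6 (chromosome M, 7927 to 8607, plus strand), a subunit of the ATP synthase membrane channel, was at 1377, 1061, 8626 and 8352 TPM and ranked first of the 13 in every library. mt-Atp8, a small ATP synthase subunit whose gene overlaps mt-Atp6 by 43 bases, was at 446, 440, 3259 and 3103 TPM. For both genes the libraries of 1 number differed far less by treatment than the numbers did from each other. mt-Co1 (5328 to 6872, plus strand), the catalytic subunit of cytochrome c oxidase, was at 1042, 315, 7621 and 8305 TPM. mt-Co2, the subunit that takes electrons from cytochrome c, was at 490, 322, 4525 and 4412 TPM. mt-Co3, the other core subunit, was at 734, 623, 4133 and 6300 TPM. In these 3 genes of complex IV the libraries numbered 1 held lower values than either library numbered 2, and the UVB library of number 1 was the lowest of the 4.

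Complex III contributes 1 gene to the mitochondrial genome. mt-Cytb (14145 to 15288, plus strand), the cytochrome b that carries electrons between the quinone sites, was at 429, 369, 4400 and 5011 TPM. Its libraries numbered 2 were 10.3-fold and 13.6-fold above those numbered 1, without and with UVB. The complex V mRNAs together differed by 6.52-fold and 7.63-fold and those of complex IV by 7.18-fold and 15.1-fold. The 7 complex I mRNAs differed by 5.58-fold and 16.6-fold, the widest gap between the treatment groups among the 4 complexes.

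Complex I subunits ranged most among themselves. mt-Nd1 (2751 to 3707, plus strand), part of the quinone-binding region, was the highest of them at 843, 444, 3287 and 4627 TPM. The proton-pumping subunits followed, with mt-Nd4 at 263, 94.5, 1728 and 1581 TPM. mt-Nd2 was at 228, 48.2, 1041 and 1345 TPM. mt-Nd5 was at 47.5, 43.3, 364 and 712 TPM, and mt-Nd4l, whose gene overlaps mt-Nd4 by 7 bases, was at 29.6, 5.40, 269 and 361 TPM. All of these kept the order by number.

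mt-Nd3 and mt-Nd6 departed furthest from the other subunits. mt-Nd3 (9459 to 9806, plus strand), a small complex I subunit, was at 0.121, 0.108, 281 and 262 TPM. In the libraries numbered 1 its mean depth was 0.273 and 0.293 reads per base, while mt-Co3, which lies upstream of it with only mt-Tg between, had a depth of 1661 and 1690. The depth of mt-Co3 over mt-Nd3 was 6086 and 5767 in the libraries numbered 1 against 14.7 and 24.1 in those numbered 2. mt-Nd6 (13552 to 14070) is the only mitochondrial protein gene on the minus strand. It was at 50.4, 4.16, 1187 and 1739 TPM, so number 2 was 23.6-fold above number 1 without UVB and 418-fold above it with UVB. Its depth relative to mt-Cytb, its neighbour beyond mt-Te on the opposite strand, was 0.118, 0.0113, 0.270 and 0.347. Its last 14 bases overlap mt-Nd5, and its depth over that of mt-Nd5 was 1.06, 0.0961, 3.26 and 2.44. As the strand of the reads is not known here, reads of mt-Nd6 and reads antisense to it cannot be told apart.

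**Figure D2:**
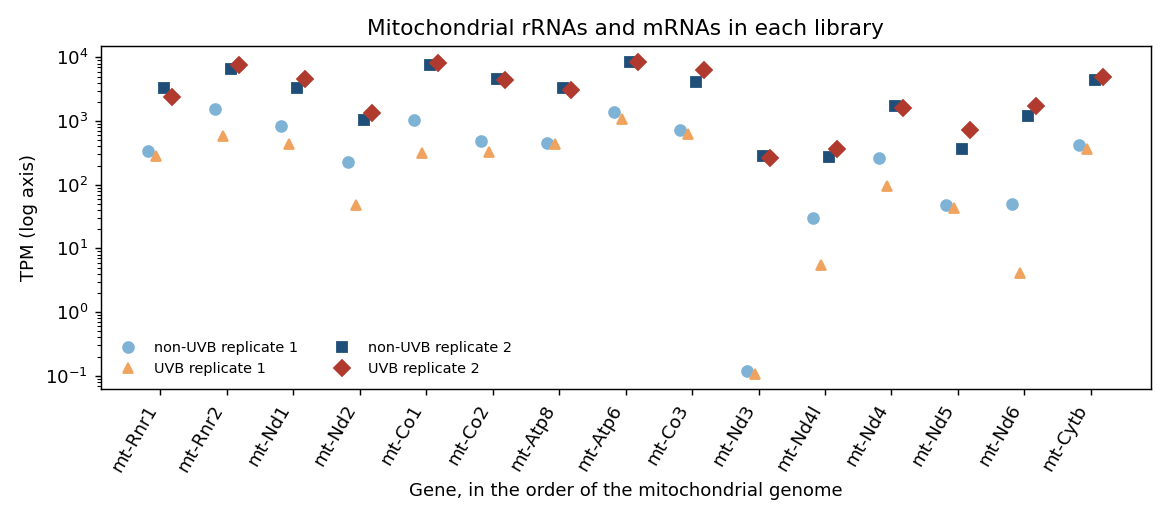
Level of each of the 2 mitochondrial rRNAs and 13 mRNAs, in TPM on a log axis and in the order of the genome, with 1 point per library. The libraries numbered 2 lie above those numbered 1 for every gene, and the gap is widest at mt-Nd3, which falls to 0.121 and 0.108 TPM in the libraries numbered 1.

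The 2 ribosomal RNAs, which form the core of the mitochondrial ribosome, had the same order. mt-Rnr1 (70 to 1024, plus strand), the small subunit RNA, was at 335, 284, 3317 and 2398 TPM. mt-Rnr2 (1094 to 2675, plus strand), the large subunit RNA, was at 1538, 581, 6542 and 7675 TPM. The depth of mt-Rnr2 over mt-Rnr1 was 4.59, 2.05, 1.97 and 3.20, with the highest and the next highest value in different treatments and numbers. Of all mitochondrial TPM, rRNA made up 21.9%, 17.8%, 17.2% and 15.7% and mRNA 69.8%, 77.4%, 71.1% and 71.9%. The makeup by class thus moved far less between libraries than the total did.

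Transfer RNAs, the adaptors of mitochondrial translation, were seen unevenly. The 22 genes are 59 to 75 bases long, shorter than the reads, so a full-length read over any of them also covers bases outside it. There were 10, 8, 18 and 20 of the 22 above 0, and 6, 4, 14 and 18 at 1 TPM or more. By far the most came from mt-Ts1, the serine tRNA on the minus strand (6870 to 6938), at 700, 219, 5602 and 6856 TPM. The other 21 tRNAs together took 0.0017%, 0.0019%, 0.112% and 0.113% of TPM. The sequences of mt-Ts1 and of its neighbour mt-Td, the aspartate tRNA on the plus strand (6942 to 7011), are shown because the pair differed so much. Both are written 5′ to 3′ on their own strand, for chrM:6870-6938 and chrM:6942-7011, and the capitals mark the bases of mt-Ts1 that also belong to the end of mt-Co1.
mt-Ts1: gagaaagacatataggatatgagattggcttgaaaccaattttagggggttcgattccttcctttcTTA
mt-Td: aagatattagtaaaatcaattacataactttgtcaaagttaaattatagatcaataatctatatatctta

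mt-Td was at 0, 0, 22.6 and 36.6 TPM. The depth of mt-Ts1 over that of mt-Co1, which it overlaps by 3 bases on the opposite strand, was 0.672, 0.693, 0.735 and 0.826. That ratio varied less between libraries than either gene did. Because the strand of the reads is not known here, reads that run from mt-Co1 into the antisense of mt-Ts1 and reads from mt-Ts1 itself cannot be told apart.

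Of the remaining tRNAs, mt-Tl1 (leucine, 2676 to 2750), which follows mt-Rnr2, was the highest in the libraries numbered 1 at 8.33, 7.75, 133 and 129 TPM. mt-Te (glutamate), beside mt-Nd6 on the minus strand, was at 0, 0.283, 162 and 317 TPM. mt-Tp (proline) was at 0.732, 5.00, 34.2 and 120 TPM. In these 3 both libraries numbered 2 were above both numbered 1. The cluster of minus-strand tRNAs between mt-Nd2 and mt-Co1 was higher in non-UVB 2 than in UVB 2. In it mt-Tc (cysteine) was at 2.16, 0, 244 and 99.5 TPM. mt-Tn (asparagine) was at 0, 0, 152 and 43.2 TPM. mt-Ta (alanine) was at 2.47, 0, 102 and 16.9 TPM, and mt-Ty (tyrosine) at 0.099, 0, 77.3 and 27.3 TPM. All 4 were listed at 0 in UVB 1, and 1 of them, mt-Tn, also in non-UVB 1.

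Other tRNAs were higher in UVB 2 than in non-UVB 2. mt-Tm (methionine) was at 0, 0, 5.17 and 68.0 TPM. mt-Th (histidine) was at 0, 0, 0.487 and 45.7 TPM. mt-Ts2 (the other serine tRNA) was at 0, 0, 0.375 and 16.1 TPM. mt-Tt (threonine) was at 0, 0.061, 10.8 and 57.7 TPM, mt-Tq (glutamine) at 1.44, 0.389, 57.0 and 91.6 TPM and mt-Tg (glycine) at 1.22, 0.810, 5.42 and 12.2 TPM. mt-Ti (isoleucine) went the other way, at 0.519, 0, 110 and 41.3 TPM. mt-Tw, mt-Tk, mt-Tf, mt-Tr and mt-Tl2 did not exceed 2.45 TPM in any library. mt-Tv (valine), which sits between the 2 rRNA genes, was the only member seen in the libraries numbered 1 alone, at 0.442 and 4.35 TPM, and was listed at 0 in those numbered 2.

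**Figure D3:**
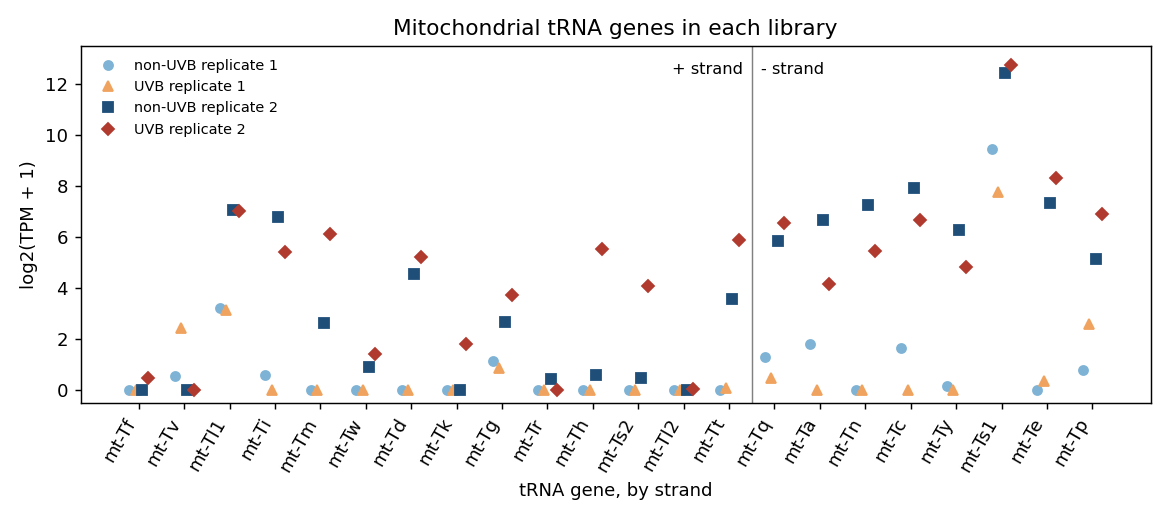
Level of each of the 22 mitochondrial tRNAs as log2(TPM + 1), by strand, with 1 point per library and genes listed at 0 on the zero line. mt-Ts1 stands far above the others in every library, and most other tRNAs are at or near 0 in the libraries numbered 1.

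With UVB, no mitochondrial transcript passed the test. limma, fitted on log2(TPM + 1) over the 10286 genes that reached 1 TPM in 2 or more libraries, called 0 of the 34 members that could be tested at a Benjamini-Hochberg adjusted p under 0.05, where 0% of all genes tested passed. At an unadjusted p under 0.05 it called 0 of the 34, against 11.3% of all genes. In 0 of the 34 did the UVB and non-UVB libraries not overlap, against 32.9% of all genes (23.2% higher and 9.71% lower with UVB). In all 34, both libraries numbered 2 lay above both numbered 1, against 22.5% of all genes tested. The treatment groups therefore had to overlap, and the count of 0 without overlap was fixed by the split. Members below 1 TPM in both libraries numbered 1, mt-Nd3 and mt-Tn among them, passed the filter through those numbered 2 alone. Such members had to be higher in number 2. The median log2 difference of the 34 was -0.22, and that of all genes tested was 0.26. The differences ran from -2.16 for mt-Ta to 1.78 for mt-Tp. Their median SE was 2.03, against 1.12 over all genes, and it takes in the gap between the numbers. The 0 at an unadjusted p therefore says little about UVB. The 34 had passed a filter on low values and comprise all 13 mRNAs, both rRNAs, 14 of the 22 tRNAs and all 5 copies.

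Within each number the direction was not the same. Among the libraries numbered 1, UVB was below non-UVB for 27 of the 34 and above it for 4, and mt-Td, mt-Tm and mt-Tn were at 0 in both. Among those numbered 2, UVB was above non-UVB for 19 and below it for 15. In both numbers, 3 of the 34 were higher and 13 lower with UVB, where 34% of all genes tested were higher and 17.7% lower. The 13 include 2 copies, Gm28661 and Gm10925, whose values cannot be told apart from those of mt-Co2 and mt-Atp6. The 34 are therefore not separate measurements. With the replicate number as a block in the fit, 0 of the 34 were called and the smallest adjusted p of a member was 0.709. These counts describe the members and do not show that UVB left them as they were.

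Relative to the other mitochondrial mRNAs, 3 of the 13 had UVB and non-UVB libraries that did not overlap, or 23.1%. By TPM level, 32.9% of all genes tested did not overlap, so the count of 3 is no result about UVB. As a share of the summed TPM of the 13, mt-Co3 was at 12.3% and 10.1% without UVB and at 16.5% and 13.7% with UVB. mt-Nd5 was at 0.793% and 0.895% without UVB and at 1.15% and 1.54% with it. mt-Nd4 went the other way, at 4.40% and 4.24% without UVB and 2.51% and 3.43% with UVB. With 2 libraries against 2, no such share can reach a p under 0.333. The remaining 10 shares overlapped between the groups, mt-Atp6 among them at 23.0% and 21.2% without and 28.2% and 18.1% with UVB.

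The nuclear copies followed their parents. The 5 together took 0.407%, 0.249%, 2.83% and 3.10% of TPM, with number 2 above number 1 by 6.94-fold without and 12.5-fold with UVB. Gm29216 was at 1455, 462, 10340 and 11527 TPM, the highest of all 42 genes in both libraries numbered 2. Gm10925 was at 1389, 1077, 8868 and 8442 TPM. Gm28437 was at 736, 624, 4235 and 6327 TPM and Gm28661 at 492, 323, 4539 and 4408 TPM. Gm28438, the copy of mt-Nd3, was at 0.0608, 0.109, 292 and 269 TPM, as low in the libraries numbered 1 as its parent. Each copy thus had the order of libraries by number that its parent had. Because nearly all reads match both places, that likeness does not show RNA from the copies themselves.

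Depth per base made the likeness plainer. Gm28661 had 1.003, 1.003, 1.003 and 0.999 times the depth of mt-Co2, with which it shares every base. Gm10925 stood at 1.01, 1.01, 1.03 and 1.01 times mt-Atp6 and Gm28437 at 1.003, 1.001, 1.02 and 1.004 times mt-Co3. Gm28438 stood at 0.504, 1.01, 1.04 and 1.03 times mt-Nd3, with a depth below 1 read per base of both genes in the libraries numbered 1. Gm29216 stood at 1.40, 1.47, 1.36 and 1.39 times mt-Co1, of which it covers only the end. Of the TPM of the copies and all mitochondrial genes together, the copies held 32.2%, 33.8%, 33.0% and 32.6%. That share overlapped between the treatments and moved little between numbers, whereas the totals behind it moved several-fold. Counting the copies with the mitochondrial genes, the 42 genes took 1.26%, 0.736%, 8.56% and 9.51% of TPM.

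**Figure D4:**
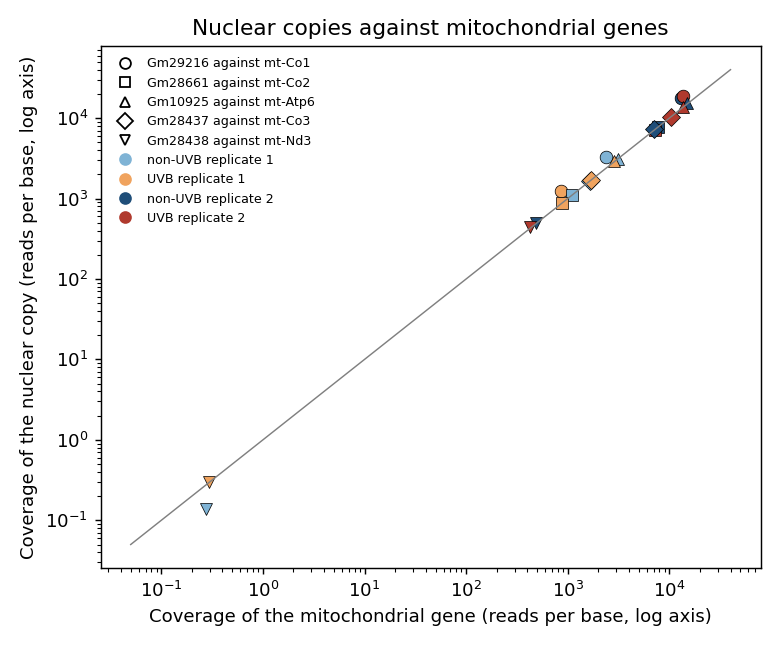
Depth per base of each nuclear copy against its mitochondrial parent in the 4 libraries, on log axes in reads per base, with the line of equal depth. Points lie on or near it except for Gm29216, which lies above it at 1.36 to 1.47 times mt-Co1, and Gm28438 in non-UVB 1 at 0.504 times mt-Nd3.

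The nuclear genes that build and run mitochondria differed far less by number. The 76 genes for respiratory complex subunits, which join the mitochondrial subunits in the same complexes, summed to 27664, 31355, 35648 and 32318 TPM. Number 2 stood 1.29-fold above number 1 without UVB and 1.03-fold above it with UVB. The 22 genes listed for mitochondrial mass summed to 4460, 4233, 4468 and 4527 TPM, with ratios of 1.002 and 1.07. They are import and pore proteins, chaperones, membrane proteins, enzymes and carriers of the organelle. Whether their sum tracks mass was not tested. Mitochondrial ribosomal protein genes summed to 4851, 7925, 7116 and 6583 TPM, with ratios of 1.47 and 0.831. Genes for mitochondrial DNA maintenance and transcription summed to 353, 274, 510 and 260 TPM, with ratios of 1.45 and 0.949. Those for mitochondrial RNA processing and stability were lower in the libraries numbered 2, at 991, 1111, 472 and 561 TPM. Regulators of biogenesis had ratios of 0.748 and 0.812 and mitochondrial aminoacyl-tRNA synthetases, which load the tRNAs, of 0.915 and 0.744. None of the 7 lists reached the 6.68-fold and 13.2-fold of the mitochondrially encoded genes, and the difference between lists was not tested.

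**Figure D5:**
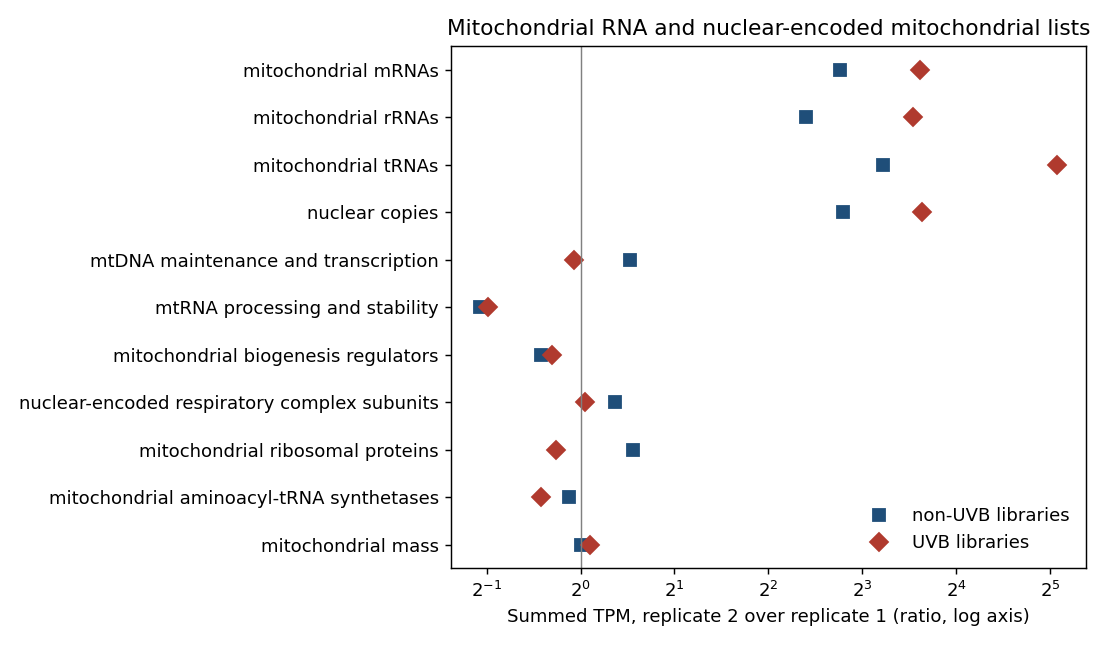
Ratio of summed TPM in the library numbered 2 to that numbered 1, on a log axis, for mitochondrial mRNAs, rRNAs and tRNAs, the nuclear copies and 7 lists of nuclear genes for mitochondrial functions, with 1 point without and 1 with UVB. The nuclear lists lie between 0.476 and 1.47, and the other 4 sets between 5.26 and 33.6.

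With UVB, 0 genes of the 7 nuclear lists passed limma at an adjusted p under 0.05. At an unadjusted p under 0.05, 2 of 11 tested genes of DNA maintenance and transcription were higher with UVB, as were 1 of 13 of RNA processing, 1 of 6 regulators, 0 of 75 respiratory subunits, 6 of 78 ribosomal proteins and 2 of 9 synthetases. Over all genes tested, 9.97% were higher at that p and 1.37% lower, and in the list for mitochondrial mass 1 of 22 was lower. Of the genes counted as higher, all but 2 ribosomal proteins were below 1 TPM in both non-UVB libraries. These had passed the filter on low values through the UVB libraries alone and so had to differ, and the counts support nothing about the lists. Medians on the log2 scale were -0.36, 0.16, 0.46, 0.14, 1.47, 1.35 and 0.02 in that order, beside 0.26 over all genes tested. Leaving out 1 library moved these medians from -1.56 to 1.07 for DNA maintenance and transcription, -0.30 to 0.92 for RNA processing, -0.69 to 0.55 for regulators, 0.66 to 1.64 for ribosomal proteins and 0.18 to 2.07 for synthetases. The median of the synthetases was also -0.34 with a filter on the mean level and 0.43 with no filter. In 24 of the 78 ribosomal proteins both UVB libraries were above both non-UVB libraries and in 5 below, beside the 23.2% and 9.71% of all genes given above, and 80 and 75 of the 84 genes reached 1 TPM with UVB, against 55 and 51 without it. The UVB libraries also had more genes of any kind at that level, 10317 and 10227 against 7825 and 8033.

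Single genes of these lists are given from those with the smallest unadjusted p in each direction, without UVB first. Mterf4, which recruits a methyltransferase to the mitochondrial ribosome, was at 0 and 0.036 TPM against 41.5 and 44.5 TPM with UVB. Top1mt, the mitochondrial topoisomerase, was listed at 0 without UVB, in both libraries, and at 21.1 and 45.9 TPM with it. Tfam, which packages mitochondrial DNA and starts its transcription, was at 64.0 and 34.4 against 8.34 and 0.201 TPM. The Tfam levels did not overlap between treatments, yet limma gave an adjusted p of 0.514, and Polg, the mitochondrial DNA polymerase, was at 42.1 and 77.0 against 10.3 and 35.8 TPM. Of RNA processing, Ptcd1 was at 0 and 0.367 against 11.1 and 23.6 TPM, and Pde12, which trims poly(A) tails, was at 0 and 2.82 against 14.3 and 13.6 TPM. Tbrg4, an RNA-binding protein of the FASTK family, was at 13.7 and 78.0 against 5.66 and 4.30 TPM. Ptcd2 was at 61.3 and 5.39 against 21.1 and 0.106 TPM, with groups that overlapped.

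Among regulators, Gabpa, a subunit of the transcription factor NRF-2, was at 0.0233 and 0.1004 against 11.4 and 21.6 TPM with UVB. Its partner Gabpb1 was at 154 and 53.9 against 59.2 and 11.6 TPM. Of respiratory subunits, Uqcrb of complex III was at 616 and 548 against 1189 and 866 TPM, and Sdhb of complex II was at 144 and 14.1 against 432 and 299 TPM. Uqcrh, also of complex III, was lower with UVB, at 860 and 843 against 441 and 500 TPM. The nuclear subunits of complex III therefore stood on both sides, and Uqcrc2 was at 193 and 173 against 106 and 101 TPM. Of ribosomal proteins, Mrpl38 was at 0 and 0.201 against 90.3 and 66.9 TPM. Mrpl55 was at 155 and 269 against 70.7 and 100.1 TPM. Of synthetases, Yars2, which loads the tyrosine tRNA, was listed at 0 without UVB, in both libraries, and at 19.6 and 27.1 TPM with it. Tars2, which loads the threonine tRNA, was at 88.3 and 85.1 against 86.3 and 0.378 TPM. In the list for mass, Opa1, which shapes the inner membrane, was at 20.4 and 3.72 against 0 and 0.0799 TPM. Slc25a5, an ADP/ATP carrier, was at 775 and 259 against 1056 and 875 TPM. Mdh2, the malate dehydrogenase of the organelle, was at 481 and 401 against 672 and 567 TPM, and Slc25a3, the phosphate carrier, at 584 and 670 against 337 and 335 TPM. All of these had a limma adjusted p above the threshold, the smallest being 0.223.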

How the data were processed

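The data are 4 RNA sequencing libraries, 2 non-UVB and 2 UVB, made per the labels' protocols from total RNA with an ultra-low-input SMARTer kit and read as single ends of 100 bases. HISAT2, StringTie and DESeq2 are named with GRCm38 (mm10) in the submitters' processing notes, without versions or roles, and the sources used here do not give the annotation version. The authors deposited a table for each library that lists coverage, FPKM and TPM for every gene, per the file headers. Deposited coverage is the mean signal in reads per base of a gene and is not scaled to depth. Deposited FPKM values are scaled to length and to a library total, and served to derive the bases behind each library, from the highest ratio of coverage to FPKM, and as an alternative unit. Deposited TPM values sum to 1000000 in each library.

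Values were added up where an ID occurred more than once, and the 4 tables were merged by ID. The share of each class is its summed TPM over the total. Genes that reached 1 TPM in 2 or more libraries were fitted as log2(TPM + 1) in limma 3.58.1 (R 4.3.3). The model held group alone, and the spread followed an intensity trend. Differences on this scale understate the change of low genes. P-values were adjusted by Benjamini-Hochberg over all genes tested, with a threshold of 0.05. No count test was run, because the tables hold no whole reads. The fit was tested on simulated data. Shares were compared by exact permutation. Sequences came from GENCODE M21 transcripts (GRCm38), in which 42 of 42 members had the same start, end and strand as in the tables.

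All members were named whatever their result, as were up to 2 tested genes per direction of each list with the smallest unadjusted p, of which some are not printed, and the most abundant marker of a cell type. Further markers, Foxp3 among them, were named outside this rule. The members and lists were chosen with earlier results of these data known. Alternatives changed the pseudocount, filter, unit, scaling, genes behind the total and spread model, blocked on the replicate number, and omitted the libraries 1 by 1.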

Additional observations from a re-analysis of the deposited data

How the results depend on the processing

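The count of members called with UVB was 0 under all 15 settings tried, and no gene of the nuclear lists was called under any of them. With a fit of 2 libraries per group this says little about stability. The difference in mitochondrial share, 0.158 percentage points, ranged from -2.81 to 3.12 when 1 library was left out. It turned negative when non-UVB replicate 1 was left out (-2.28) and likewise for UVB replicate 2 (-2.81). It lay between 0.058 and 0.214 under the other alternatives. The share of the nuclear copies among copies and mitochondrial genes differed by 0.547 percentage points, UVB minus non-UVB (exact permutation p = 0.667). This difference turned negative with the protein-coding denominator (-0.783 percentage points, exact permutation p = 0.333) and without UVB replicate 1 (-0.068). It was 1.98 with coverage times gene length, and it ranged from -0.068 to 1.16 when 1 library was left out.

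Fitted log2 differences were -0.80 ± 1.99 (SE) for mt-Co1, -0.59 ± 1.54 for mt-Rnr2, -1.38 ± 3.44 for mt-Nd6 and -0.69 ± 2.09 for mt-Ts1. Leaving out 1 library moved them from -3.16 to 1.56, -2.45 to 1.27, -5.58 to 2.82 and -3.17 to 1.79. Each turned positive when UVB replicate 1, or else non-UVB replicate 2, was left out. The median of the members moved from -2.21 to 1.82. The members whose groups did not overlap went from 0 of 34 to 15 of 34 and 19 of 34 when the non-UVB or the UVB library numbered 1 was left out, and to 1 of 25 and 24 of 25 when the non-UVB or the UVB library numbered 2 was. In the same order 76.4%, 56.0%, 76.2% and 52.5% of all genes tested did not overlap. The lone library was then assumed to vary like the other group. Scaling moved the median of all genes tested from 0.26 to -0.50 (median scaling) and -0.19 (quantile).

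With the replicate block, 0 members were called and their smallest adjusted p was 0.709. Deviations of the libraries numbered 1 from their group means correlated with r = 0.165 across 10286 genes, which are not independent. With 2 pairs the number is not shown to pair the libraries.

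In the libraries numbered 1, which held more bases than those numbered 2, mt-Nd3 was below 1 read per base. Values at such a depth rest on few reads.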

Other observations

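Outside the members, 10 further genes shared runs of at least 50 bases with a mitochondrial gene. They were chosen by sequence after the values of the members were seen. In the same order of libraries as above, they summed to 348, 83.8, 2072 and 2238 TPM, which is 0.0348%, 0.0084%, 0.207% and 0.224% of all TPM. Of these genes, the pseudogenes Gm28439 and Gm10222 lie beside the 5 copies on chromosome 1. Gm28439 (24611535 to 24612410, minus strand) shares runs with mt-Nd4 and was at 187, 19.8, 690 and 723 TPM. Gm10222 (24612407 to 24612700, minus strand) shares runs with mt-Nd4l and was at 29.9, 5.50, 273 and 364 TPM, beside 29.6, 5.40, 269 and 361 TPM for mt-Nd4l itself. A second group lies on chromosome 2, where Gm13341 shares runs with mt-Co2 and was at 56.5, 33.3, 510 and 507 TPM. Gm13340, with runs of mt-Co1, was at 49.2, 15.2, 386 and 419 TPM, and Gm13339, with runs of mt-Nd2, at 23.2, 8.24, 196 and 201 TPM. In all 5 the libraries numbered 2 were above those numbered 1, against 22.5% of the 20976 genes above 0 in at least 1 library. Reads that lie within a shared run match both places, so this order does not show RNA from these pseudogenes themselves.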
